A study of Arabidopsis thaliana with 4 samples.

Results

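The SIAMESE family encodes small plant proteins that bind cyclin-dependent kinases (CDKs) and restrain them. When a dividing cell stops entering mitosis but goes on copying its DNA, a cycle called endoreplication begins, and several SIAMESE-type inhibitors are known to promote that switch. SIAMESE (SIM) is best known from trichomes and SMR1 from the giant cells of sepals. The 8 genes described here are the SIAMESE-RELATED genes SMR3, SMR4, SMR5, SMR6, SMR7, SMR10, SMR11 and SMR12, out of 14 family genes considered and 26822 lines of the deposited table used. They were chosen by their FPKM in these same libraries, as the family members whose mean was not higher when SCL28 was overexpressed. Their differences between the genotypes are therefore given as a description, with no test.

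The libraries are RNA-seq of root tips, taken from Arabidopsis thaliana seedlings (ecotype Col-0) that were 5 d old and had been kept at 22 °C in constant light. The SCL28-OX group is 1 overexpressing line, #10, and has 2 libraries, and the wild type (WT) also has 2. SCL28 encodes a transcription factor of the GRAS family, and the sources used here do not give the promoter of the introduced copy. The tissue label says root tip, whereas the extraction text says roots. Separate plant batches are not stated for the replicates, so the p-values below reflect library-to-library spread that may be purely technical. Values are FPKM, that is fragments per kilobase of transcript scaled by library size. Depth was judged from the smallest steps in the values, assuming scaling within each library. It was near 28050000 and 26000000 fragments in SCL28-OX and near 33150000 and 27550000 in WT. The factors that would align the median gene across libraries were 1.0003 to 1.0026, so scaling across libraries is possible. The depths would then be relative sizes. FPKM summed to 848731 and 849311 in SCL28-OX and to 951429 and 945618 in WT. SCL28 stood at 2378 and 2300 FPKM in SCL28-OX, against 6.78 and 7.57 FPKM in WT.

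All 6 root tip marker genes were detected, with a summed level of 74.2 to 74.5 FPKM in SCL28-OX and 66.5 to 71.3 FPKM in WT. Of these 6, SCR was called higher (0.50) and PLT1 lower (-0.27) by limma at an adjusted p under 0.05, where 32.7% of all 18087 genes tested were higher and 33.8% lower. The other 4 did not pass the test, and among them WOX5, PLT2 and SMB had lower means in SCL28-OX. Genes listed as differentiated root markers were also present, with the endodermal gene CASP1 the most abundant. All 3 were called higher by limma (32.7% of all genes tested), at sums of 296 to 307 FPKM in SCL28-OX and 264 to 265 FPKM in WT. The differences were 0.12 for CASP1, 0.70 for COBL9 and 0.75 for GL2, and the lines of CASP1 and GL2 overlap other genes. Of 6 photosynthesis genes listed as shoot markers, 4 were called higher and the other 2 did not pass the test (limma adjusted p under 0.05, with 32.7% of all genes tested higher). Of those 2, LHCA1 had a higher mean in SCL28-OX (0.26) and LHCB2.1 a lower one (-0.19). The 6 genes summed to 177 to 178 FPKM in SCL28-OX and 119 to 121 FPKM in WT. The part of these tissues in the values below was not tested. In bulk samples such as these, fewer cells of a type and less RNA per cell cannot be told apart.

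The 8 genes are short and mostly of a single exon. Counted from RefSeq exons cut to the deposited intervals, their transcripts span 266 bases (SMR5) to 868 bases (SMR11), with a median of 573. SMR12 alone has 2 exons. On the TAIR10 genome SMR4 (AT5G02220, chromosome 5, 441707 to 442146) lies 81.2 kb from SMR3 (AT5G02420, chromosome 5, 523389 to 524076), and SMR11 (AT2G28330, chromosome 2, 12099890 to 12100757) lies 293.5 kb from SMR10 (AT2G28870, chromosome 2, 12394256 to 12394915). SMR5 (AT1G07500) is on chromosome 1 at 2304766 to 2305031, SMR6 (AT5G40460) on chromosome 5 at 16202247 to 16202932, SMR7 (AT3G27630) on chromosome 3 at 10231116 to 10231418, and SMR12 (AT2G37610) on chromosome 2 at 15776869 to 15777673. None of these intervals overlaps another line of the table.

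The 250 bases before each annotated start, read from the RefSeq annotation of TAIR10.1, were searched for a pair of motifs. The first, CTTNNNNNNNAAG, is the palindromic core bound by SOG1, the transcription factor of the plant DNA damage response, for which SMR5 and SMR7 are known targets. It occurs before SMR4, SMR5 and SMR7, that is 3 of the 8 genes and none of the other 6 family genes, and in 9.71% of 27443 protein-coding promoters of the same length. The second, AACGG, searched on both strands, is the core of the mitosis-specific element bound by MYB3R factors, regulators of G2/M genes. It occurs before SMR4, SMR6, SMR11 and SMR12, 4 of the 8 genes, before 1 of the other 6 (SMR2), and in 20.6% of all promoters. SMR5 is annotated from its start codon, so its window may hold transcribed sequence. The RefSeq starts of SMR3, SMR4, SMR6, SMR7 and SMR10 lie outside their deposited intervals, which the windows therefore do not adjoin. The transcript lengths used here, cut to the deposited intervals, leave that annotated stretch out. The 3 windows below show SMR7 with a SOG1 core, SMR11 with a pair of AACGG copies, and SMR4 with both motifs. They are written 5′ to 3′ on the gene's strand, with the motif letters in capitals. A match is a description of these letters and not a binding site.
SMR7 (TAIR10.1, minus strand, chr3:10231568-10231817): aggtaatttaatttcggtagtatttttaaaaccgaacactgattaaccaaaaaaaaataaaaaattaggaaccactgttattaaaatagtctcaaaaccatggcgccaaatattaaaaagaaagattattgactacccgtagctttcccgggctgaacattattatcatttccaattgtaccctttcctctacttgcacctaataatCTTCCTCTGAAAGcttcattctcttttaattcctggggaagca
SMR11 (TAIR10.1, minus strand, chr2:12100758-12101007): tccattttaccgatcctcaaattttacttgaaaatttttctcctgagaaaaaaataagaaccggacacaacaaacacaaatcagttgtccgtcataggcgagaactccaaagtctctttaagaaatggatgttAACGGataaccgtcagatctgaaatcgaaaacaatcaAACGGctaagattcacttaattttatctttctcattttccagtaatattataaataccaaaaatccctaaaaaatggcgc
SMR4 (TAIR10.1, minus strand, chr5:442188-442437): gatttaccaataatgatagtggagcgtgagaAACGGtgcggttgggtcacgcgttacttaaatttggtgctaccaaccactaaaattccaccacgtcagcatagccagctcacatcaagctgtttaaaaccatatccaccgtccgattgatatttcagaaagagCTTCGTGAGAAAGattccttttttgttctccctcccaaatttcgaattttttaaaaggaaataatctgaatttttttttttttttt

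SMR3 was by far the most abundant of the 8 genes. It stood at 42.2 and 38.5 FPKM in SCL28-OX, against 51.3 and 49.8 FPKM in WT, and 79.2% of the 18087 genes tested had a lower mean over the 4 libraries. Both SCL28-OX libraries lay below both WT libraries. The means were 40.3 ± 2.57 FPKM in SCL28-OX and 50.6 ± 1.11 FPKM in WT (SD, n = 2 each), a ratio of 0.798. About 620 and 524 fragments stood behind the SCL28-OX values and about 885 and 721 behind the WT values, more than for any other of the 8 genes. RefSeq describes its product as an SMR3-like CDK inhibitor. Within each library SMR3 made up 59.9% to 62.3% of the summed FPKM of the 8 genes in SCL28-OX and 57.7% to 61.9% in WT.

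SMR10 and SMR11 came next. SMR10 stood at 8.86 and 7.85 FPKM in SCL28-OX, against 8.22 and 10.4 FPKM in WT, and the genotypes overlapped. Without WT replicate 2 its difference in log2(FPKM + 1) was 0.02, against -0.13 with all libraries. SMR11 stood at 5.99 and 5.47 FPKM in SCL28-OX, against 8.11 and 9.31 FPKM in WT, with no overlap. Its means were 5.73 ± 0.371 FPKM in SCL28-OX and 8.71 ± 0.846 FPKM in WT (SD, n = 2 each), a ratio of 0.658. RefSeq describes SMR10 as an SMR1-like inhibitor and gives no function for SMR11.

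SMR4, known in the stomatal lineage as an inhibitor that slows the cell cycle before the last divisions, had the difference farthest from 0 on the log2(FPKM + 1) scale with all libraries (-0.58), ahead of SMR11 (-0.53). The order of the pair is not settled: without SCL28-OX replicate 1 they were at -0.42 (SMR4) and -0.58 (SMR11), without WT replicate 2 at -0.42 and -0.44, and with a pseudocount of 5 FPKM at -0.32 and -0.35. It stood at 2.59 and 3.50 FPKM in SCL28-OX, against 4.37 and 5.76 FPKM in WT, with no overlap. These values rest on about 20 and 25 fragments in SCL28-OX and about 39 and 44 in WT. An exact Poisson interval of 95%, which covers counting error only, ran from 2.27 to 5.17 FPKM for the higher SCL28-OX library and from 3.12 to 5.97 FPKM for the lower WT library, so these intervals overlap although the values do not. The means were 3.04 ± 0.645 FPKM in SCL28-OX and 5.07 ± 0.980 FPKM in WT (SD, n = 2 each), a ratio of 0.601.

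SMR6, which RefSeq describes as an SMR3-like inhibitor, stood at 3.83 and 3.25 FPKM in SCL28-OX, against 4.28 and 4.51 FPKM in WT. The libraries did not overlap, at a ratio of means of 0.806, and the difference in log2(FPKM + 1) went to -0.16 without SCL28-OX replicate 2, against -0.25 with all libraries. SMR12, at 1.44 and 0.959 FPKM in SCL28-OX and 1.41 and 1.35 FPKM in WT, rests on about 13 and 8 fragments in SCL28-OX and about 15 and 12 in WT. One SCL28-OX library of SMR12 was the highest of the 4 and the other the lowest, and without SCL28-OX replicate 2 its difference turned to 0.04, against -0.12 with all libraries.

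SMR5 and SMR7, the inhibitor genes that DNA damage and oxidative stress induce through SOG1, were low in every library. SMR7 stood at 2.81 and 3.61 FPKM in SCL28-OX, against 5.17 and 3.61 FPKM in WT, with about 11 and 13 fragments in SCL28-OX and about 23 and 14 in WT. The second libraries of the genotypes were almost equal and only WT replicate 1 stood higher: without it the difference in log2(FPKM + 1) was -0.14, against -0.35 with all libraries, and without WT replicate 2 it was -0.56. SMR5 was listed at 0 and at 1.19 FPKM in SCL28-OX, and at 0 and at 1.63 FPKM in WT. The values above 0 rest on about 3 fragments in SCL28-OX and about 5 in WT. A count of 0 allows up to 3 fragments, which is 1.05 FPKM in the SCL28-OX library listed at 0 and 0.923 FPKM in the WT library listed at 0. SMR5 was therefore at the limit of detection in both genotypes, and a difference was not detectable at this depth. For transcripts as short as these, the effective length behind the fragment numbers is itself approximate.

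**Figure D1:**
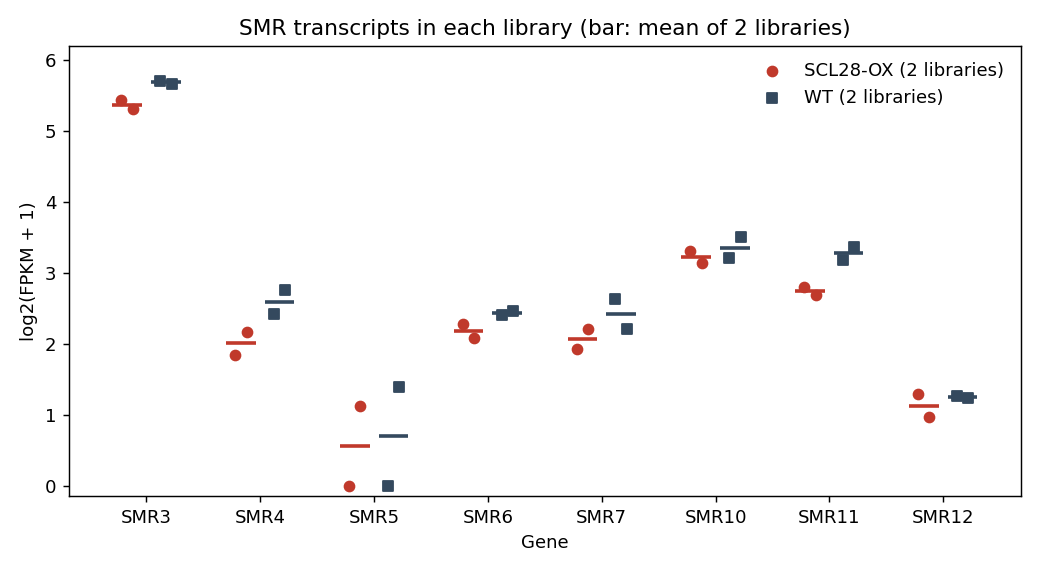
Level of the 8 SMR genes on the log2(FPKM + 1) scale, 1 point per library, with bars at the mean of the 2 libraries of a genotype. SMR3 lies far above the other genes, SMR5 is listed at 0 in 1 library of each genotype, and the genotypes are apart for SMR3, SMR4, SMR6 and SMR11.

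The order of the levels, which are per length, was much the same in the genotypes. In SCL28-OX it ran SMR3, SMR10, SMR11, SMR6, SMR7, SMR4, SMR12, SMR5, and in WT SMR3, SMR10, SMR11, SMR4, SMR6, SMR7, SMR12, SMR5. In SCL28-OX the libraries of SMR6, SMR7 and SMR4 overlapped from 1 gene to the next, as did SMR12 and SMR5, while the steps above SMR6 were clear of overlap. In WT SMR10 overlapped SMR11, the 3 genes SMR4, SMR6 and SMR7 overlapped in turn, and SMR12 overlapped SMR5. SMR3 stood clear of SMR10 in both genotypes.

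In all, the means of all 8 genes were lower in SCL28-OX, which is what the choice of the genes asked for. The genotypes did not overlap for 4 of them, SMR3, SMR4, SMR6 and SMR11. Among all 18087 genes tested, those with a mean of at least 1 FPKM, SCL28-OX lay below WT without overlap at 42.1%, so nothing is read from the count of 4. The difference in log2(FPKM + 1), SCL28-OX minus WT, had a median of -0.29 over the 8 genes and of -0.01 over all genes tested. It was -0.58 for SMR4, -0.53 for SMR11, -0.35 for SMR7, -0.32 for SMR3, -0.25 for SMR6, -0.13 for SMR5 and SMR10, and -0.12 for SMR12. SMR5 alone had a mean under 1 FPKM and was not among the genes tested. At the edge of the choice, the members nearest to 0 were SMR12, SMR10 and SMR5, and the nearest family genes outside it were SMR1 (0.42) and SMR13 (0.45).

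These differences lie where short transcripts lie. Across genes, which are not independent replicates, the difference rose with transcript length (Spearman's rho 0.678 over the 17934 genes tested with a length). In the shortest of 10 length classes, which spans 111 to 746 bases, the median difference in log2(FPKM + 1) was -0.42, and 7 of the 8 SMR genes are no longer than that. In the longest class, from 2877 to 16368 bases, it was 0.48. The smooth trend of the difference on length stood between -0.40 and -0.26 at the lengths of the 8 genes. SMR3 (-0.32, where the trend is -0.33) and SMR7 (-0.35, where it is -0.36) lay on it, SMR12, SMR10, SMR5 and SMR6 lay above it, and SMR4 and SMR11 lay below it. Only 106 genes tested were no longer than SMR7, so the trend is least certain for SMR5 and SMR7.

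With each library corrected for that trend, the 8 genes were centred near 0. Their median difference was 0.05, against -0.03 over all genes with a length. SMR3 was at 0.01, SMR7 at 0.01, SMR6 at 0.08, SMR5 at 0.18, SMR10 at 0.21 and SMR12 at 0.28, so 6 of the 8 values changed sign. With a correction for length and GC content, SMR7 (-0.02) and SMR5 (-0.17), which was at the limit of detection, were below 0. SMR11 (-0.26) and SMR4 (-0.18) stayed below 0. Corrected libraries did not overlap for SMR11, which was lower, and for SMR12, which was higher, where 42.5% of all genes were lower and 32.8% higher without overlap. The correction takes the same amount from weak and strong genes of a length, while adding 1 FPKM shrinks the differences of weak genes such as SMR12 and SMR5. With a pseudocount of 0.1 FPKM and the same correction, a combination chosen after the data were seen, SMR12 was at 0.24, SMR3 at 0.03, SMR4 at -0.24 and SMR11 at -0.31. Overlap of the libraries was not examined at that setting.

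**Figure D2:**
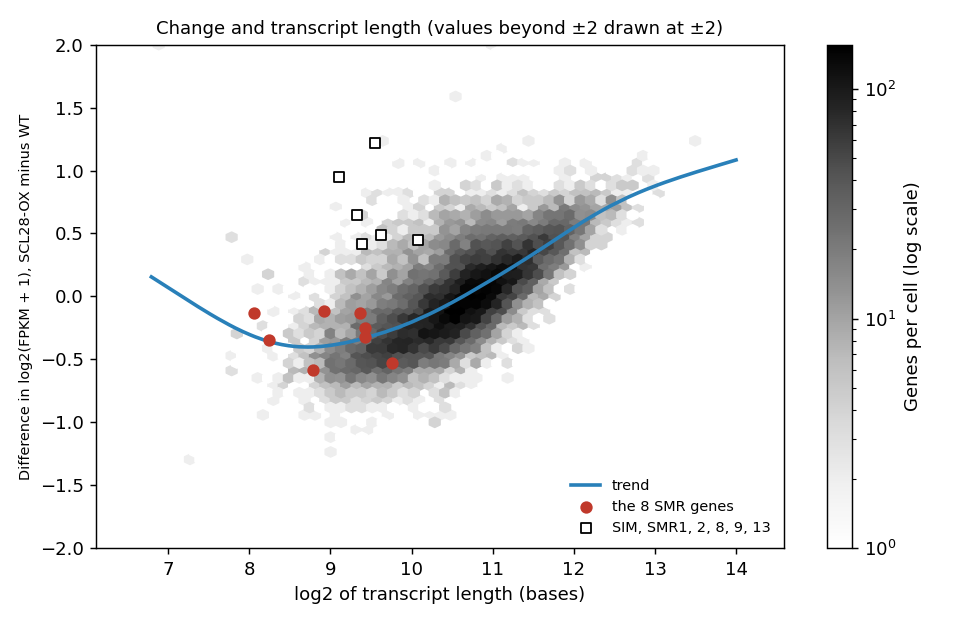
Difference in log2(FPKM + 1), SCL28-OX minus WT, against log2 transcript length in bases, with all tested genes in grey cells, the trend used for the correction as a line, the 8 SMR genes as filled circles and the other 6 family genes as open squares. The 8 genes lie on both sides of the trend, whose value is -0.40 to -0.26 at their lengths, and the other 6 lie above it.

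The other 6 family genes, SIM, SMR1, SMR2, SMR8, SMR9 and SMR13, have a median length of 710.5 bases, against 573 for the 8, and lay between 0.42 and 1.22 on the same scale, or between 0.63 and 1.53 after the correction. Taken as shares of the summed FPKM of the 14 genes, the 8 genes made up 25.1% and 23.4% in SCL28-OX and 38.7% and 37.1% in WT. Their own sum was 67.7 and 64.3 FPKM in SCL28-OX and 82.9 and 86.3 FPKM in WT, while that of the other 6 was 202 and 210 FPKM in SCL28-OX and 131 and 146 FPKM in WT. Because the genes were sorted by this same contrast, the separation of the sets is a description.

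**Figure D3:**
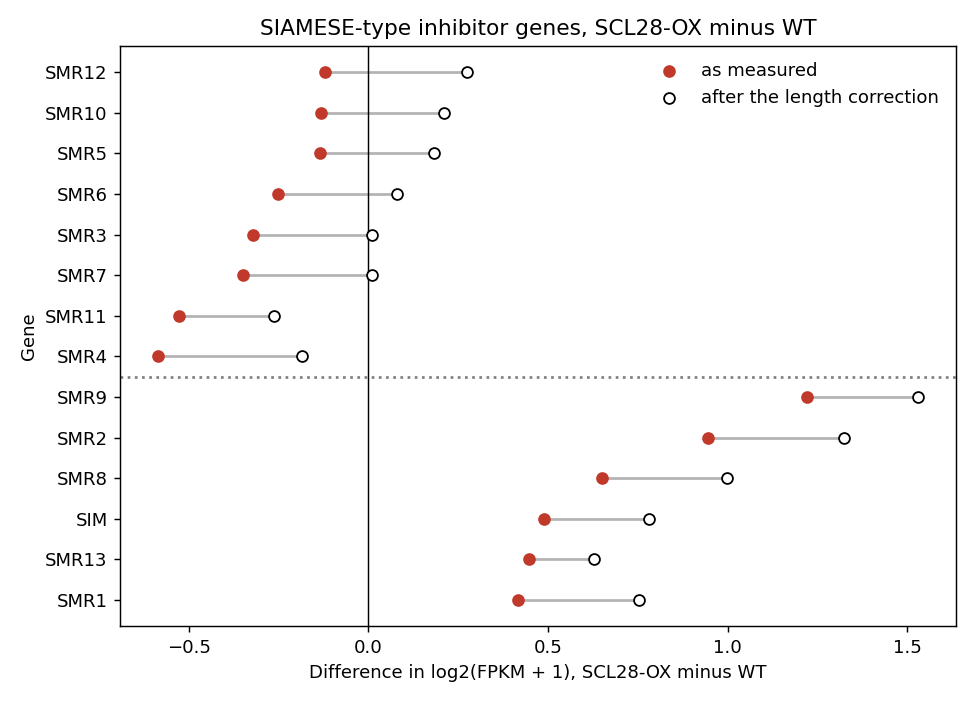
Difference in log2(FPKM + 1), SCL28-OX minus WT, for the 8 SMR genes (above the dotted line) and the other 6 family genes (below it), as measured (filled) and after the length correction (open). As measured the 8 genes run from -0.58 to -0.12, and after the correction from -0.26 to 0.28.

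The genes whose values over the 4 libraries were nearest to those of SMR3 were AT5G02240, AT3G49560 and AT5G01430, at Euclidean distances of 0.073, 0.082 and 0.085 on the log2(FPKM + 1) scale. Nearest to SMR4 were AT4G22610, WRKY40 and AOP1, at distances of 0.20, 0.27 and 0.27. With 4 libraries of 2 genotypes, such nearness is no more than a like level and a like difference.

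The CDKs, their CKS subunits and the cyclins form a list that includes the proteins SIAMESE-type inhibitors bind. Of its 32 genes tested, 8 rose, 13 fell and 11 did not pass the test (limma, Benjamini-Hochberg adjusted p under 0.05), where 32.7% of all genes tested rose and 33.8% fell. CYCD3;3, a D-type cyclin gene that drives cell division, fell to 15.3 and 16.5 FPKM in SCL28-OX, against 24.7 and 24.9 FPKM in WT (-0.61 ± 0.05 SE on the log2 scale, limma adjusted p = 2.61e-05). CKS2 fell as well (-0.55 ± 0.03 SE, limma adjusted p = 2.97e-06). CYCD1;1, another D-type cyclin gene, rose to 24.3 and 24.2 FPKM in SCL28-OX, against 15.4 and 15.1 FPKM in WT (0.63 ± 0.04 SE, limma adjusted p = 9.68e-06), and CYCA2;2 rose by 0.31 (limma adjusted p = 0.0047). After the length correction 5 genes were higher and 12 lower, where 20.5% and 26.6% of all genes were. CYCD3;3 was then at -0.54, CKS2, whose transcript has 573 bases, at -0.18, CYCD1;1 at 0.51 and CYCA2;2 at 0.23. Each of these still passed the threshold (largest limma adjusted p = 0.0258, for CYCA2;2). With a correction for length and GC content, 7 were higher and 8 lower. The count of 8 rises was 3 without WT replicate 1 and 4 without SCL28-OX replicate 2.

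Of 23 other regulators of the endocycle, 5 rose, 4 fell and 14 did not pass the test, where 32.7% of all genes tested rose and 33.8% fell. RBR1, the retinoblastoma-related repressor of S phase genes, rose to 13.7 and 13.5 FPKM in SCL28-OX, against 8.62 and 9.56 FPKM in WT (0.53 ± 0.06 SE, limma adjusted p = 0.000163). E2FA, one of the E2F factors that RBR1 binds, was at 0.44 (limma adjusted p = 0.00262), though its line overlaps another gene. SAMBA, a regulator of the anaphase-promoting complex, fell to 18.9 and 17.6 FPKM in SCL28-OX, against 27.3 and 28.7 FPKM in WT (-0.59 ± 0.05 SE, limma adjusted p = 3.17e-05), and KRP7, of the second class of plant CDK inhibitors, fell by 0.58 (limma adjusted p = 0.000442). After the length correction 3 genes were higher and 5 lower, where 20.5% and 26.6% of all genes were, with RBR1 at 0.07 (limma adjusted p = 0.408), E2FA at 0.34, SAMBA at -0.24 and KRP7 at -0.32. The count of 5 rises was 3 without WT replicate 1.

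The DNA damage list, which holds SOG1 and genes it acts on or with, bears on SMR5 and SMR7. Of its 14 genes, 13 were matched to a line and 9 had a mean of at least 1 FPKM. Of these 9, 2 rose, 2 fell and 5 did not pass the test, where 32.7% of all genes tested rose and 33.8% fell. SOG1 itself stood at 16.6 and 16.2 FPKM in SCL28-OX and 16.7 and 16.9 FPKM in WT (-0.04 ± 0.04 SE, limma adjusted p = 0.488), and was called lower after the length correction (-0.13, limma adjusted p = 0.0415). ATM, the kinase that signals DNA breaks, rose (0.44, limma adjusted p = 0.00409), but its transcript of 9734 bases is among the longest, its line overlaps another gene, and after the length correction it was lower (-0.50, limma adjusted p = 0.00395). PARP2 rose by 0.20 and was at 0.02 after the correction. XRI1 fell by 0.19 (limma adjusted p = 0.0295) and did not pass the test after the correction, at -0.13. After the correction none of the 9 was higher (1 at an unadjusted limma p under 0.05) and 2 were lower, where 20.5% and 26.6% of all genes were. The 2 falls were lost without WT replicate 1, with none at an unadjusted p under 0.05 either, and the count was 1 without any other single library. The 2 rises were 1 without SCL28-OX replicate 2 and 1 without WT replicate 2.

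**Figure D4:**
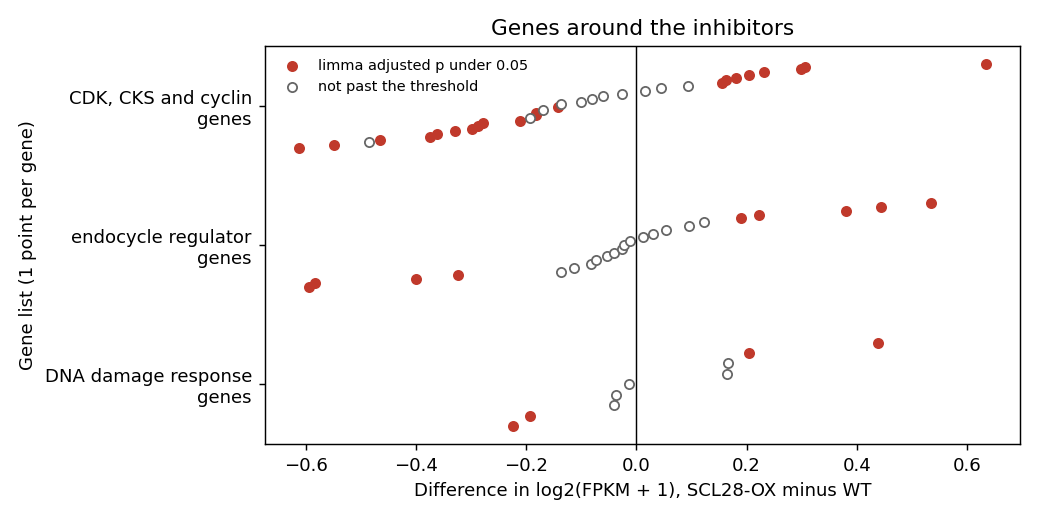
Difference in log2(FPKM + 1), SCL28-OX minus WT, for each tested gene of the 3 lists, before the length correction, with genes past the limma threshold filled. The CDK, CKS and cyclin list has 8 rises and 13 falls, the endocycle list 5 and 4, and the DNA damage list 2 and 2.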

How the data were processed

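Deposited FPKM values cover each gene in each of 4 libraries. Per the file headers, the authors' comparison table adds the mean FPKM of each genotype, a test score, a p-value and a q-value. The deposited score and p-values were read but gave no printed value, since the genes were chosen by that contrast. The submitters' processing notes name CASAVA 1.8.2, Cuffdiff 2.2.0 and TopHat2 2.0.13, and the TAIR10 build. Libraries came from a stranded mRNA kit, per the labels' protocols (the sources used here do not say if strand was used in quantification). No read counts were used.

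Of 26883 lines, 60 with shifted columns and 1 not analysed here were left out. limma 3.58.1 was fitted to log2(FPKM + 1) of genes averaging 1 FPKM or more (eBayes with trend, two-sided, Benjamini-Hochberg over 18087 genes, threshold 0.05) in R 4.3.3. Length was the longest RefSeq transcript within the deposited interval, and the trend was a smooth fit with mgcv 1.9.3. Positions count from 1. Depth came from steps of low FPKM in genes of at least 600 bases, where 94.0% to 95.8% of values up to 15 fragments were whole within 0.1. The libraries of a genotype differed beyond counting noise and were counted as separate. The fits were run on simulated data with simpler noise than these libraries, which checks the code and does not bear on how accurate the calls are. The members and lists were chosen with earlier results of these data known. The text names SCL28, the 8 genes, the other 6 family genes, up to 2 rises and 2 falls per list, and the 3 nearest genes of the most abundant and the most different member. SOG1 and CASP1 are named outside that ranking, as list members, and 1 gene that the rule names is not reported here.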

Additional observations from a re-analysis of the deposited data

How the results depend on the processing

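Of the recomputed counts, 106 stayed within 1.5 times the value reported and 30 did not. Of the recomputed log2 differences of the 8 genes, 17 changed sign, 10 moved by more than the spread between replicates and 77 did neither. Some of the 77 could not move, since a filter on genes or a replicate block leaves these differences as they are. They are 8 with no filter, 3 with a mean of at least 5 FPKM, 7 without overlapping or joined lines and 7 with the block. The transcript length correction turned SMR3 (0.0105), SMR5 (0.18), SMR6 (0.0805), SMR7 (0.0101), SMR10 (0.21) and SMR12 (0.28). With a pseudocount of 0.1 FPKM beside it, added after the data were seen, SMR3 (0.0276), SMR6 (0.0473), SMR7 (0.0604), SMR10 (0.22) and SMR12 (0.24) were above 0. The length and GC correction turned SMR3 (0.11), SMR6 (0.19), SMR10 (0.31) and SMR12 (0.26), with SMR5 at -0.17 and SMR7 at -0.02. With each library left out, SMR12 ran from -0.28 to 0.0396 (above 0 without SCL28-OX replicate 2) and SMR10 from -0.28 to 0.0188 (without WT replicate 2). Without the length correction, median-ratio scaling, quantile normalization and pseudocounts of 0.1 and 5 FPKM turned no sign for the 7 genes other than SMR5. SMR5 was not run under these settings. The median-ratio factors were 1.0003 to 1.0026, so that scaling could hardly move a value.

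Over all genes, rises numbered 5911 as reported, 3672 with the length correction, 3539 with that correction at 0.1 FPKM and 3419 with the length and GC correction, and 5179 to 5322 with each library left out, where falls were 5411 to 5733. Rises among CDK, CKS and cyclin genes numbered 5 with no filter, 3 with quantile normalization, 5 with the length correction and 4 with it at 0.1 FPKM, and 3 to 7 with each library left out (falls 11 to 15). Falls of that list numbered 8 with the length and GC correction. Rises of endocycle regulators numbered 3 with quantile normalization, with the length correction at either pseudocount, and without overlapping or joined lines, and 3 to 5 with each library left out (falls 4 to 5). Rises of DNA damage genes numbered 4 without trend, 1 without overlapping or joined lines and 0 with any length correction (limma; 1 at an unadjusted p under 0.05 in each). Falls numbered 0 with no filter (2 unadjusted), 1 with a mean of at least 5 FPKM, 1 without trend and 1 with the length and GC correction. With each library left out rises were 1 to 2 and falls 0 to 1, the lone library of a genotype being assumed to vary like the others. The cause of these shifts was not tested.

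With the replicate number as a block, 5793 genes rose and 6161 fell. The deviations of same-numbered libraries correlated at 0.122 across genes, but with only 2 numbers shared this does not show that the numbers pair the samples. Depth limits SMR5, SMR7 and SMR12 most, at about 3 to 23 fragments where detected.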
